A study of Mus musculus with 3 samples.

Results

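Collagen chain genes are the genes whose products wind together in threes into the triple helices of the collagens. They were taken as every gene whose symbol is Col, a number, the letter a and a number, and 44 of the 32285 genes in the files met this rule. The chains were compared among the stromal cells of inguinal subcutaneous fat in 3 wild-type male C57BL/6J mice of 8 weeks. Cells negative for CD31 (endothelial) and CD45 (leukocyte) had been sorted from the stromal vascular fraction, the cells that remain when collagenase-digested fat is freed of floating adipocytes. Each mouse gave 1 droplet library, and the values are unique molecular identifiers (UMIs), each standing for 1 captured mRNA molecule.

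Cells were kept above 500 genes and below 5% of UMIs from mitochondrial transcripts, and placed in 3 classes by their raw UMIs. Progenitors had at least 3 UMIs of Dpp4 and Pi16 together and at most 1 of Icam1 and Fabp4. Preadipocytes had at least 4 UMIs of Icam1 and Fabp4 and at most 1 of Dpp4. Regulatory cells, named after the adipogenesis-regulatory cells of this tissue, had at least 1 UMI of Clec11a and of Fmo2 and at most 1 each of Fabp4 and Dpp4. The gates took 19841 progenitors (57.4% of 34577 kept cells), 5561 preadipocytes (16.1%) and 1058 regulatory cells (3.06%). The 264 cells that met more than 1 gate were left out, and 7853 cells met none. Of the 264, 174 met the preadipocyte and regulatory gates and 90 the progenitor and regulatory gates. UMIs were summed per mouse and class, and levels are given as counts scaled to 1000000 UMIs of the sum (CPM). In this 3′ assay each captured mRNA is counted once whatever its length. Capture was not calibrated between genes, so ratios of different chains are ratios of UMIs and need not equal ratios of mRNA molecules.

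Fibrillar collagens (types I, II, III, V, XI, XXIV and XXVII) form the banded fibres that carry tension. Type IV chains form the sheet-like network of basement membranes, which in fat surrounds each adipocyte and each capillary, and type VI chains assemble into beaded filaments that link that network to the fibres. Multiplexins (types XV and XVIII) sit in and next to basement membranes, and FACITs (types IX, XII, XIV, XVI and relatives) lie on the surface of fibrils. mRNA levels in sorted cells say nothing about how much protein the digested tissue held.

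The gates were checked against marker genes that they did not use. All 6 progenitor markers, Anxa3 and Cd55 among them, were highest in the progenitors, and all 6 preadipocyte markers, Pparg and Cd36 among them, were highest in the preadipocytes. Regulatory cells lay between on both lists. The preadipocyte markers summed to 434 to 542 CPM in progenitors, 1066 to 1452 in regulatory cells and 3577 to 4264 in preadipocytes. The progenitor markers summed to 4247 to 4670, 965 to 1175 and 665 to 712. The part of such mixing in the regulatory collagen values was not tested. Of 6 markers of regulatory cells, F3, Mgp, Gdf10 and Meox2 were highest in the regulatory class, while Igfbp5 and Fbn1 were highest in the progenitors. The sorted-out cell types left few traces: of 7 endothelial markers, Pecam1 had a mean of 0.406, 4.15 and 1.35 CPM in progenitors, preadipocytes and regulatory cells, and the summed list of 140 to 169 CPM in progenitors was almost all Tek, at a mean of 154 CPM. Kdr was the 1 endothelial marker at 0 in the regulatory cells of all mice. Leukocyte markers stayed at 17.6 CPM or less. Markers of mural cells, which the sort did not target, summed to 17.4 to 27.5 CPM in progenitors, 66.6 to 107 in preadipocytes and 52.7 to 102 in regulatory cells. In the regulatory cells of mice 1, 2 and 3, epithelial markers summed to 0, 0 and 74.4 CPM and mesothelial markers to 0, 2.16 and 32.0. Schwann and adipocyte markers stayed at 26.1 CPM or less in all classes. Genes induced by tissue dissociation summed to 9245 to 12582 CPM in progenitors, 15391 to 19253 in preadipocytes and 15244 to 17805 in regulatory cells, and their part in the collagen values was not tested. Median UMIs per cell were 7329, 12052 and 6690 in progenitors of mice 1, 2 and 3, 8083, 12977 and 7296 in preadipocytes, and 4945, 10104.5 and 4575 in regulatory cells. The class sums held between 1424350 and 61731570 UMIs, so that 3 UMIs correspond to between 0.0486 and 2.11 CPM. Between 37 and 59 kept barcodes occurred in both libraries of a pair.

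Of the 44 chains, 28 had enough UMIs for the test, 20 of them with a mean of at least 50 CPM in some class. The other 16 chains together were close to silent. Col9a1, Col10a1 and Col22a1 had no UMI in any class sum, and the other 13 had at most 69 UMIs over all 9 sums and a mean of at most 0.517 CPM in any class. These 13 include the cartilage fibril chains Col2a1, with 3 UMIs, and Col11a1, with 12, as well as Col11a2, Col24a1, Col6a4, Col19a1, Col9a2, Col9a3, Col8a2, Col13a1, Col17a1, Col25a1 and Col26a1. A chain could pass the abundance filter through a single class, so the counts of chains below describe the chains that were tested.

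The 9 sums entered 1 quasi-likelihood fit in edgeR with the mouse as a block, and p-values were adjusted over 13258 genes. Log2 fold changes are given ± SE with the class named first on top: progenitors against preadipocytes, regulatory cells against progenitors and regulatory cells against preadipocytes, negative where the second class was higher. The p-values rest on 3 mice, and on classes that were drawn by gates in these same cells. Between progenitors and preadipocytes, 25 of the 28 chains passed an adjusted p of 0.05, 7 higher in progenitors and 18 higher in preadipocytes. Of all tested genes, 56.4% passed, with 29.2% higher in progenitors and 27.2% higher in preadipocytes. The median log2 fold change was -0.92 over the chains and 0.00 over all genes. Between regulatory cells and progenitors, 23 chains passed, 19 higher in regulatory cells and 4 higher in progenitors, against 42.9% of all genes (18.9% and 24.0%). The median was 0.81 over the chains and -0.05 over all genes. Between regulatory cells and preadipocytes, 19 chains passed, 7 higher in regulatory cells and 12 higher in preadipocytes, against 25.7% of all genes (12.3% and 13.3%). The median was 0.04 over the chains and -0.04 over all genes. With a change of at least 2-fold also required, 19 chains remained between progenitors and preadipocytes, 5 higher in progenitors and 14 higher in preadipocytes (19.7% of all genes, 9.96% and 9.71%). Between regulatory cells and progenitors there were 14, 11 higher in regulatory cells and 3 higher in progenitors (16.9% of all genes, 8.87% and 8.02%). Between regulatory cells and preadipocytes there were 13, 4 higher in regulatory cells and 9 higher in preadipocytes (9.84% of all genes, 5.69% and 4.15%).

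**Figure D1:**
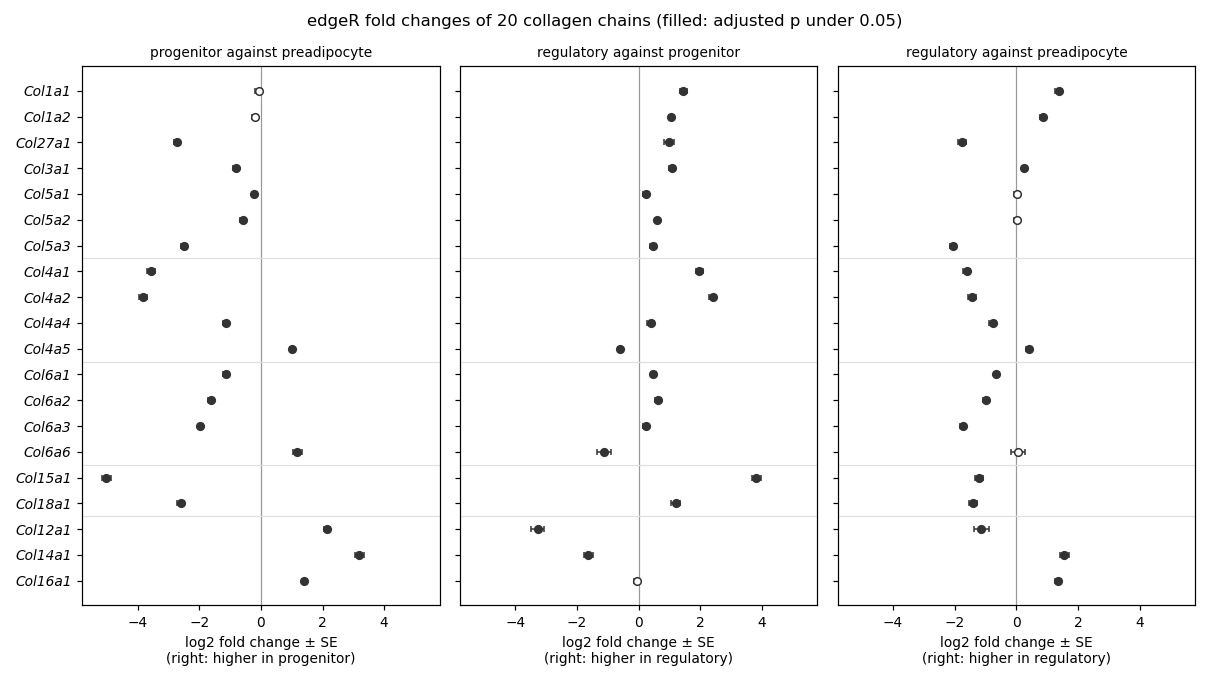
Log2 fold changes (edgeR), with standard errors derived from the test statistic, of the 20 chains with at least 50 CPM in a class. There is 1 panel for each comparison, ordered by chain group, and filled points passed an adjusted p of 0.05. Left of 0 in the first panel, Col15a1 lies farthest out at -5.02 and is followed by Col4a2 at -3.84, while Col14a1 lies farthest to the right at 3.19.

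Collagen mRNA as a whole took the smallest share of UMIs in progenitors. All chains together made up 28288, 31432 and 29226 CPM in the progenitors of mice 1, 2 and 3. They made up 49195, 53464 and 54834 CPM in the preadipocytes, and 64812, 60909 and 58134 CPM in the regulatory cells. The 3 classes did not overlap. The same order held cell by cell between progenitors and the other classes: the median cell gave 2.46, 2.70 and 2.62% of its UMIs to collagen chains in progenitors, 4.77, 5.00 and 5.39% in preadipocytes, and 5.66, 5.77 and 5.40% in regulatory cells. In mouse 3 the preadipocyte and regulatory medians, 5.39 and 5.40%, were almost equal. These values are shares of UMIs, and regulatory cells had the lowest median UMIs per cell in each mouse. They do not rank the classes by collagen UMIs per cell. As a gauge of free RNA, 10 kept cells with at least 3 UMIs of the leukocyte genes Ptprc, Tyrobp and Cd52 gave a median of 0.257, 0.121 and 0.231%. Summed over these 3, 4 and 3 cells, collagen chains took 2.58, 1.68 and 0.235% of UMIs, so that single cells decide the level of this gauge.

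The classes also differed in the make-up of their collagen transcripts. Fibrillar chains took 86.2 ± 2.38% of collagen UMIs in progenitors, 72.6 ± 3.63% in preadipocytes and 90.1 ± 0.80% in regulatory cells (mean ± SD, n = 3 mice). Type IV chains took 1.97 ± 0.64, 10.3 ± 2.00 and 3.03 ± 0.47%, and type VI chains took 8.43 ± 1.07, 14.4 ± 1.19 and 5.48 ± 0.41%. FACITs took 3.17 ± 0.76% in progenitors, 0.26 ± 0.06% in preadipocytes and 0.56 ± 0.16% in regulatory cells, the most in progenitors.

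For each UMI of a basement membrane or beaded filament chain (types IV and VI), the progenitors of mice 1, 2 and 3 held 6.98, 10.2 and 8.15 UMIs of fibrillar chains. The preadipocytes held 2.54, 3.61 and 2.81, and the regulatory cells 9.49, 11.3 and 11.1. The preadipocyte ratios were the lowest in each mouse and did not overlap with the others, while progenitors and regulatory cells overlapped. Within a mouse, the log2 ratio of progenitors exceeded that of preadipocytes by 1.46, 1.50 and 1.54, a mean of 1.50 ± 0.04. Regulatory cells exceeded preadipocytes by 1.90, 1.65 and 1.99 (mean 1.85 ± 0.18) and progenitors by 0.44, 0.14 and 0.45 (mean 0.35 ± 0.17). The excess over progenitors came from type VI. Per UMI of type IV alone, regulatory cells held 25.5, 35.4 and 29.8 fibrillar UMIs, fewer than progenitors with 31.6, 63.2 and 46.1. Per UMI of type VI alone they held 15.1, 16.6 and 17.8, more than progenitors with 8.96, 12.2 and 9.90. No test was run on these ratios, and 3 mice could not give an exact p under 0.05. The pooled ratio is set by the most abundant chains. Without Col1a1, Col1a2 and Col3a1, the mean differences were 1.00 for progenitors over preadipocytes, 0.68 for regulatory cells over preadipocytes and -0.32 for regulatory cells over progenitors. When each tested chain was given equal weight, the differences shrank to 0.094, 0.080 and -0.014. In progenitors and regulatory cells the 3 abundant chains made up 79.7 ± 3.35 and 85.9 ± 1.27% of collagen UMIs, and in preadipocytes 65.0 ± 4.75%.

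**Figure D2:**
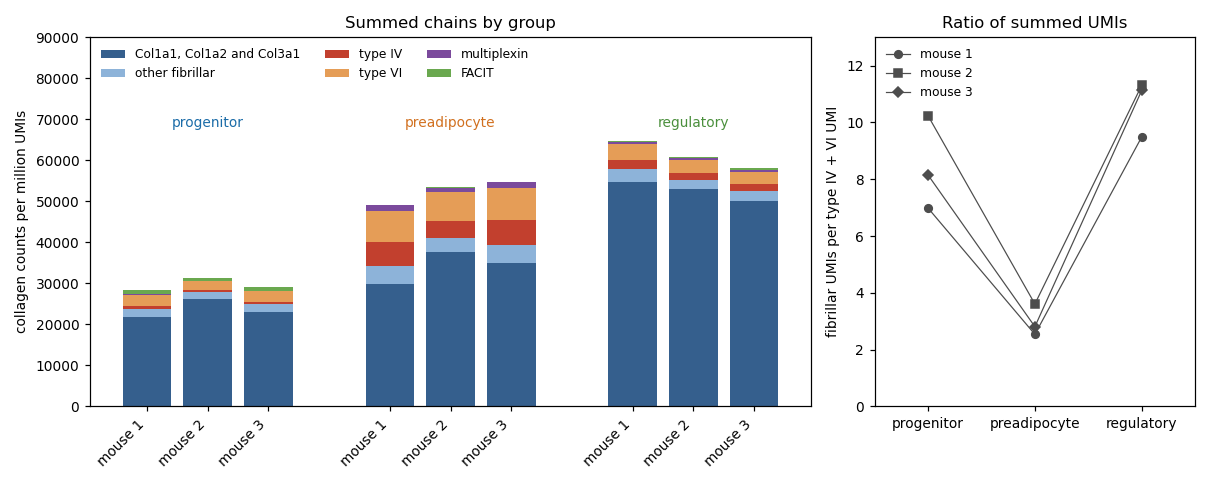
Left, collagen CPM by chain group in each mouse and class, stacked; right, fibrillar UMIs per UMI of types IV and VI, with a line for each mouse. The stacks are highest in regulatory cells, and the preadipocyte ratio is the lowest point of each line, between 2.54 and 3.61.

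The type I chains were highest in the regulatory cells, and neither differed past the threshold between progenitors and preadipocytes, though Col1a2 did under 8 alternatives. Col1a1, which gives 2 of the 3 chains of type I collagen, stood at 4331, 6031 and 5204 CPM in the progenitors of mice 1, 2 and 3, at 4481, 6889.5 and 5754 in preadipocytes and at 14242, 13570.5 and 14039 in regulatory cells. The regulatory values lay above all others, and the progenitor and preadipocyte ranges overlapped. The log2 fold change was -0.08 ± 0.11 (SE) for progenitors against preadipocytes, with an adjusted p of 0.58 in edgeR. Regulatory cells were 2.73-fold above progenitors (log2 1.45 ± 0.12, adjusted p = 9.2e-07, higher in 3 of 3 mice) and 2.58-fold above preadipocytes (log2 1.37 ± 0.12, adjusted p = 3.3e-06, 3 of 3 mice). Col1a2, the other chain of type I collagen, had 7438, 9659 and 8101 CPM in progenitors, 8380.0, 11636 and 9998 in preadipocytes and 17128, 18621 and 16254 in regulatory cells. It showed the same picture, with -0.20 ± 0.08 (adjusted p = 0.065) between progenitors and preadipocytes and 1.05 ± 0.08 (adjusted p = 9.7e-07) between regulatory cells and progenitors. Regulatory cells exceeded preadipocytes by 0.86 ± 0.08 (adjusted p = 1.2e-05). The first of these 3 differences passed the threshold under 8 alternatives, without mouse 1 (-0.26) among them. Per UMI of Col1a1 there were 1.63 ± 0.08 UMIs of Col1a2 in progenitors, 1.77 ± 0.09 in preadipocytes and 1.24 ± 0.11 in regulatory cells.

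Col3a1, the single chain of type III collagen and the most abundant chain in all 9 sums, did separate progenitors from preadipocytes. Its exons overlap those of Gm47302 on the same strand, so reads there could not be split with certainty. It had 9984, 10538 and 9755 CPM in progenitors, 17093, 19002 and 19265 in preadipocytes and 23408, 20821 and 19751 in regulatory cells, and none of these ranges overlapped. It was 1.76-fold higher in preadipocytes than in progenitors (log2 -0.82 ± 0.09, adjusted p = 6.3e-06) and 2.11-fold higher in regulatory cells than in progenitors (log2 1.08 ± 0.09, adjusted p = 1.1e-06). The step from preadipocytes to regulatory cells was small, at log2 0.26 ± 0.09 (adjusted p = 0.046), and it missed the threshold without mouse 1 (0.13) or without mouse 2 (0.31). Col3a1 per Col1a1 was 1.98 ± 0.29 in progenitors, 3.31 ± 0.53 in preadipocytes and 1.53 ± 0.12 in regulatory cells.

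Type V chains join type I chains in thin fibrils. Col5a1 had 720.2, 709.7 and 759.6 CPM in progenitors, 834, 875 and 937 in preadipocytes and 978, 810.0 and 802 in regulatory cells, differences of 1.18-fold or less (adjusted p = 0.047 for progenitors against preadipocytes, 0.047 for regulatory cells against progenitors). The first call was lost without mouse 2 (-0.21) or mouse 3 (-0.21) and the second without mouse 1 (0.16) or mouse 2 (0.28). Col5a2 had 969, 734 and 888 CPM in progenitors, 1469, 1064 and 1539 in preadipocytes and 1544, 1087 and 1296 in regulatory cells, with -0.59 ± 0.07 between progenitors and preadipocytes (adjusted p = 2.5e-05). Neither gene differed past the threshold between regulatory cells and preadipocytes. Col5a3, by contrast, had 359, 231 and 271 CPM in progenitors, 1852, 1416 and 1762 in preadipocytes and 503, 356 and 323 in regulatory cells. Its preadipocyte values stood apart from both other classes, 5.70-fold above progenitors (log2 -2.51 ± 0.10, adjusted p = 7.5e-10) and 4.14-fold above regulatory cells (log2 -2.05 ± 0.10, adjusted p = 5.5e-08). Col5a3 per Col5a1 was 0.39 ± 0.09 in progenitors, 1.91 ± 0.30 in preadipocytes and 0.45 ± 0.06 in regulatory cells. Col27a1, a fibrillar chain of a different branch with a shorter triple helix, had 12.3, 11.4 and 10.3 CPM in progenitors, 82.7, 71.7 and 81.5 in preadipocytes and 17.6, 26.5 and 19.1 in regulatory cells. It too was highest in preadipocytes, 6.68-fold above progenitors (log2 -2.74 ± 0.09, adjusted p = 1.9e-10).

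**Figure D3:**
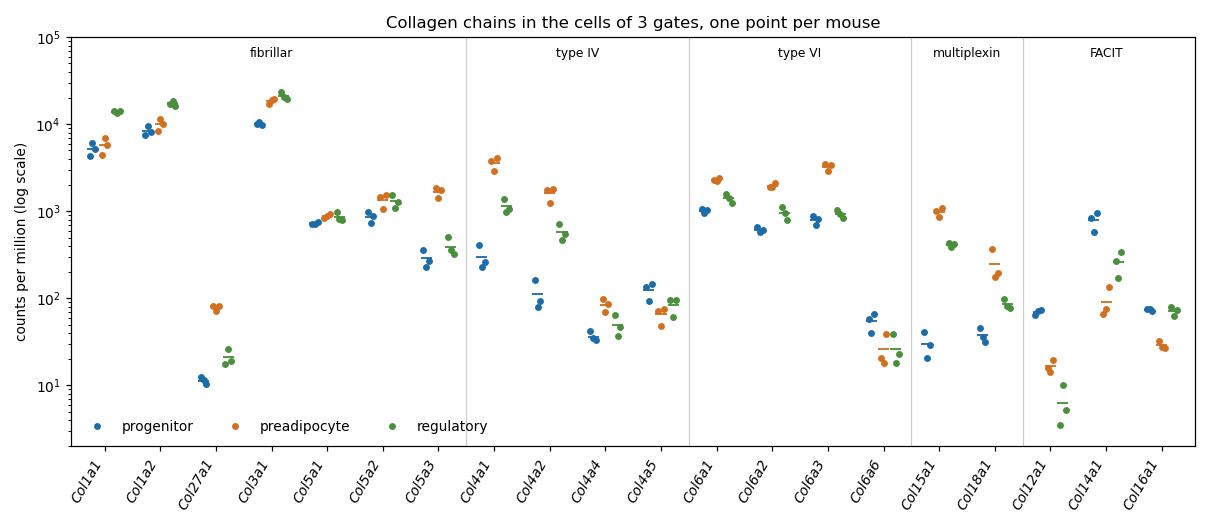
Levels of the 20 chains with at least 50 CPM in a class, in CPM on a log axis, grouped by chain type; each point is 1 mouse and each bar the mean of 3 mice. Col1a1 and Col1a2 are highest in the regulatory cells, Col4a1, Col4a2, Col15a1, Col18a1 and Col5a3 peak in preadipocytes, and Col12a1 and Col14a1 are highest in progenitors.

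Type IV collagen is encoded by 6 genes arranged as 3 pairs, in which the genes of a pair start next to each other and are read in opposite directions. In the GENCODE annotation of GRCm38, Col4a1 (chr8:11198423-11312826, minus strand) and Col4a2 (chr8:11312805-11449287, plus strand) overlap by 22 bases at their starts. Col4a4 (chr1:82448423-82586849, minus strand) and Col4a3 (chr1:82586921-82722059, plus strand) start with 71 bases between them, and Col4a6 (chrX:141165403-141474076, minus strand) and Col4a5 (chrX:141475385-141689234, plus strand) with 1308. The genes of each pair shared their direction between progenitors and preadipocytes. Between regulatory cells and progenitors, Col4a5 gave -0.60 and Col4a6 gave 0.43 ± 0.44 (adjusted p = 0.48 in edgeR for Col4a6). Without mouse 3 the Col4a6 value was -0.0010, so its direction could not be told. The promoter windows below, from RefSeq on GRCm38.p6, run from 250 bases before to 50 after the start of 1 gene of each pair. They are written 5′ to 3′ on the strand of the named gene. Capitals mark the GC box GGGCGG and the CCAAT box CCAAT, on either strand (CCGCCC and ATTGG).
Col4a1, chr8:11312777-11313076, minus strand: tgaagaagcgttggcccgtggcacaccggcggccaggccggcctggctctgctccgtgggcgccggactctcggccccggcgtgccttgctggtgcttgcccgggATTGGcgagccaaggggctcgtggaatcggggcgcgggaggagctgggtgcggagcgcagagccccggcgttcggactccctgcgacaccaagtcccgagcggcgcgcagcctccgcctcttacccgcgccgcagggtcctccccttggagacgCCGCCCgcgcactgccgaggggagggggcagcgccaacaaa
Col4a4, chr1:82586800-82587099, minus strand: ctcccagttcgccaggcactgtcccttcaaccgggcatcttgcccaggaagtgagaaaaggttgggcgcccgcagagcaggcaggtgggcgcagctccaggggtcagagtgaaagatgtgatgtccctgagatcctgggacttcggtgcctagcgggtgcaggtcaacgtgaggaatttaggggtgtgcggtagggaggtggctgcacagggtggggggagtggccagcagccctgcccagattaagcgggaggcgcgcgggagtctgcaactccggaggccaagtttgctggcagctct
Col4a5, chrX:141475169-141475468, plus strand: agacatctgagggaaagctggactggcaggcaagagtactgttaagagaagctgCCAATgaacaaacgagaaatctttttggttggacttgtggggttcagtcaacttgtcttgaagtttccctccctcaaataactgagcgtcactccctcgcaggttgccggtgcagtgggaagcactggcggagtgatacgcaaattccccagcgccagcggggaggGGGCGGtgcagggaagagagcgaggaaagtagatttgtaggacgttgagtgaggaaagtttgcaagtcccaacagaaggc
The window of Col4a1 holds 1 GC box and 1 CCAAT box, that of Col4a4 neither, and that of Col4a5 1 of each. The Col4a1 window covers the start of Col4a2 as well, and the Col4a4 window covers that of Col4a3. The Col4a5 window does not reach the start of Col4a6. G and C made up 74.0% of the Col4a1 window, 63.3% of the Col4a4 window and 52.7% of the Col4a5 window. A GC box was found in 35.7% and a CCAAT box in 37.4% of the 32851 windows in the table, which holds windows for 35 of the 44 chains. Among those 35 chains, 22 had a GC box and 13 a CCAAT box. These are matches of letters, not binding sites.

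The Col4a1 and Col4a2 pair, whose products form the common type IV network of most basement membranes, was high in preadipocytes. Col4a1 stood at 405, 229 and 259 CPM in the progenitors of mice 1, 2 and 3, at 3817, 2911 and 4071 in preadipocytes and at 1381, 988 and 1054 in regulatory cells. Col4a2 stood at 161, 79.2 and 94.4 CPM in progenitors, 1771, 1246 and 1792 in preadipocytes and 712, 464 and 542 in regulatory cells. For both genes the 3 classes did not overlap, with preadipocytes highest, regulatory cells between and progenitors lowest. Preadipocytes exceeded progenitors 11.9-fold for Col4a1 (log2 -3.57 ± 0.12 for progenitors against preadipocytes, adjusted p = 2.6e-10) and 14.3-fold for Col4a2 (log2 -3.84 ± 0.13, adjusted p = 2.0e-10), each in 3 of 3 mice. Regulatory cells exceeded progenitors 3.89-fold and 5.27-fold (adjusted p = 7.0e-08 and 2.0e-08). Endothelial and mural cells also make these chains, and no gate was set for mural cells. The 77 kept cells with at least 3 UMIs of Pecam1, Cdh5 and Emcn served as an endothelial gate. They had 1581, 1266 and 1241 CPM of Col4a1 in mice 1, 2 and 3, less than the preadipocytes of each mouse. The same cells held 17110, 3791 and 16328 CPM of fibrillar chains, and only 7 of them came from mouse 3. The part of stromal transcripts in their Col4a1 was not tested. Col4a1 per Col4a2 was 2.72 ± 0.19 in progenitors, 2.25 ± 0.09 in preadipocytes and 2.00 ± 0.11 in regulatory cells. Mouse 2, which had the most UMIs per cell, had the lowest Col4a1 and Col4a2 in each class. The 3, 4 and 3 cells of the leukocyte gate had 838, 62.0 and 83.9 CPM of Col4a1, and the part of free RNA in the progenitor level was not tested.

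The other pairs were far less abundant. Col4a4 had 41.8, 34.8 and 32.8 CPM in progenitors, 99.4, 68.9 and 85.1 in preadipocytes and 64.6, 37.3 and 46.5 in regulatory cells, and Col4a3, its partner in the network of kidney and lung, had 8.00, 3.15 and 5.28 CPM in progenitors, 48.7, 22.3 and 39.2 in preadipocytes and 12.6, 10.8 and 18.6 in regulatory cells. Preadipocytes exceeded progenitors 2.22-fold for Col4a4 (log2 -1.15 ± 0.08, adjusted p = 1.4e-07) and 6.51-fold for Col4a3 (log2 -2.70 ± 0.12, adjusted p = 1.7e-09). For Col4a4 the difference between regulatory cells and progenitors (0.39 ± 0.11, adjusted p = 0.016) missed the threshold without mouse 1 (0.31) or mouse 3 (0.34) and was 1.03 when gates and sums were taken at 3000 UMIs per cell. The difference between regulatory cells and preadipocytes, -0.76 ± 0.11, was -0.10 in that setting. The X-linked pair went the other way. Col4a5 had 135, 93.5 and 148 CPM in progenitors, 72.3, 48.6 and 75.5 in preadipocytes and 95.5, 60.6 and 95.1 in regulatory cells, 1.99-fold higher in progenitors than in preadipocytes (log2 0.99 ± 0.06, adjusted p = 2.6e-08, 3 of 3 mice). Col4a6 was low in all classes. It had 1.85 to 2.83 CPM in progenitors, 0.328 to 1.99 in preadipocytes and, near the 3-UMI floor, 1.62 to 5.68 in regulatory cells. Its log2 difference between progenitors and preadipocytes of 0.98 ± 0.30 (adjusted p = 0.014) was 0.58 without mouse 2, with an adjusted p of 0.082 in edgeR. The make-up of the type IV transcripts differed as well, with 2.40 ± 0.62 UMIs of Col4a1 per UMI of Col4a5 in progenitors, 55.5 ± 3.84 in preadipocytes and 14.0 ± 2.65 in regulatory cells.

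Type IV chains differ from fibrillar chains in their coding sequence too. In the longest reading frame of the GENCODE transcripts, the longest unbroken run of triplets that begin with a glycine codon held 337 to 344 triplets in 9 of the 11 fibrillar chains, and 216 and 217 triplets in Col24a1 and Col27a1. In the 6 type IV chains it held 39 to 66 triplets, and the reading frame had 22 to 27 separate runs of at least 5. In the type VI chains the longest run held 37 to 87.

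Type VI collagen is built from Col6a1, Col6a2 and a further chain that can be Col6a3 or one of its relatives. Col6a1 had 1050.0, 965 and 1026 CPM in progenitors, 2263, 2233 and 2432 in preadipocytes and 1578, 1417 and 1256 in regulatory cells. Col6a2 had 653, 582 and 617 CPM in progenitors, 1917, 1879.8 and 2095 in preadipocytes and 1117, 952 and 804 in regulatory cells, and Col6a3 had 889.5, 696 and 813 CPM in progenitors, 3458, 2925 and 3371 in preadipocytes and 1031, 929 and 844 in regulatory cells. All 3 chains were highest in the preadipocytes of each mouse, without overlap with either other class. The fold over progenitors grew from 2.20 for Col6a1 (log2 -1.14 ± 0.08, adjusted p = 1.9e-07) to 3.07 for Col6a2 (log2 -1.62 ± 0.10, adjusted p = 3.4e-08) and 3.92 for Col6a3 (log2 -1.97 ± 0.08, adjusted p = 8.6e-10). Col6a3 per Col6a1 was 0.79 ± 0.06 in progenitors, 1.41 ± 0.11 in preadipocytes and 0.66 ± 0.01 in regulatory cells. Between regulatory cells and progenitors, Col6a1 and Col6a2 differed by 0.48 ± 0.08 and 0.63 ± 0.10 (adjusted p = 5.9e-04 and 2.7e-04). The difference of Col6a3, 0.23 ± 0.08 (adjusted p = 0.033), missed the threshold without mouse 1 (0.26) or mouse 2 (0.15).

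The alternative further chains took other directions. Col6a6 had 58.6, 40.4 and 65.6 CPM in progenitors, 20.5, 18.2 and 39.3 in preadipocytes and 38.6, 18.1 and 22.7 in regulatory cells. It was 2.26-fold higher in progenitors than in preadipocytes (log2 1.17 ± 0.15, adjusted p = 2.3e-05) and 2.17-fold higher than in regulatory cells (adjusted p = 0.0014). Col6a5 had 5.58, 2.42 and 3.48 CPM in progenitors, 3.75, 1.31 and 4.72 in preadipocytes and 60.4, 10.3 and 28.4 in regulatory cells. It was the chain with the greatest fold of regulatory cells over preadipocytes among the 28, 9.79-fold (log2 3.29 ± 0.31, adjusted p = 8.0e-06), with a spread of 10.3 to 60.4 CPM between mice. A UMI of Col6a5 was found in 8.89, 4.69 and 6.44% of the regulatory cells of mice 1, 2 and 3 before thinning, so most cells of the class had none. The 7 cells of the endothelial gate in mouse 3 had 972 CPM of Col6a5, and the part of such cells in the regulatory value was not tested.

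The multiplexins were high in preadipocytes, and Col15a1 had the greatest fold of the 28 chains between progenitors and preadipocytes. Col15a1, the core protein of a proteoglycan that anchors basement membranes to the fibres around them, had 40.7, 20.4 and 29.2 CPM in progenitors, 1015, 854 and 1105 in preadipocytes and 429.7, 388 and 418 in regulatory cells. The classes did not overlap, and preadipocytes exceeded progenitors 32.4-fold (log2 -5.02 ± 0.15, adjusted p = 7.8e-11) and regulatory cells 2.30-fold (log2 -1.20 ± 0.13, adjusted p = 2.5e-05). The leukocyte gate had 279 CPM of Col15a1 in its 3 cells of mouse 1 and none in mice 2 and 3, and the part of free RNA in the progenitor level was not tested. Col18a1, whose carboxyl end is cleaved to release endostatin, had 46.0, 36.0 and 31.3 CPM in progenitors, 371, 178 and 194 in preadipocytes and 98.3, 81.1 and 77.0 in regulatory cells, 6.08-fold above progenitors in preadipocytes (log2 -2.60 ± 0.11, adjusted p = 1.8e-09). Mouse 1 was the highest for Col18a1 in each class, and without it the log2 difference was -2.44.

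Among the FACITs, Col14a1 and Col12a1 were highest in progenitors and Col16a1 was lowest in preadipocytes. Col14a1, which binds the surface of type I fibrils and limits their thickness, had 830.4, 579 and 952 CPM in progenitors, 65.4, 74.5 and 134 in preadipocytes and 267, 171 and 337 in regulatory cells. Progenitors exceeded preadipocytes 9.14-fold (log2 3.19 ± 0.15, adjusted p = 2.9e-09) and regulatory cells 3.12-fold (log2 -1.64 ± 0.15 for regulatory cells against progenitors, adjusted p = 2.3e-06), and regulatory cells exceeded preadipocytes 2.93-fold (adjusted p = 1.1e-05). Col12a1, its close relative in tendon and fascia, had 64.1, 72.3 and 74.4 CPM in progenitors, 15.7, 14.2 and 19.8 in preadipocytes and 3.51, 10.0 and 5.17 in regulatory cells. It too was highest in progenitors, 4.43-fold above preadipocytes (log2 2.15 ± 0.11, adjusted p = 5.7e-09), but unlike Col14a1 it was lowest in regulatory cells, 9.73-fold below progenitors (log2 -3.28 ± 0.20, adjusted p = 7.6e-08, and -3.96 without mouse 2). The difference between regulatory cells and preadipocytes (-1.13 ± 0.24, adjusted p = 0.0044) missed the threshold without mouse 3 (-0.87) and grew to -1.94 without mouse 2. Col16a1, which ties fibrils to nearby microfibrils, had 75.4, 75.2 and 71.0 CPM in progenitors, 32.8, 27.3 and 26.9 in preadipocytes and 79.3, 63.0 and 73.4 in regulatory cells. Its low level in preadipocytes passed the test against both other classes (1.41 ± 0.07 for progenitors against preadipocytes, adjusted p = 9.6e-09, and 1.34 ± 0.10 for regulatory cells against preadipocytes, adjusted p = 7.9e-07), and progenitors and regulatory cells differed by -0.07 ± 0.09 (adjusted p = 0.59).

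The tested chains under 50 CPM that have not been described stood between 0.0782 and 14.0 CPM in the class sums. Col28a1, a chain known from glia of peripheral nerve, had 0.353, 0.0782 and 0.130 CPM in progenitors, 11.8, 0.273 and 1.11 in preadipocytes and 4.91, 1.35 and 2.58 in regulatory cells, so that mouse 1 stood apart in the preadipocytes. Progenitors against preadipocytes gave -4.12 ± 0.51 (adjusted p = 2.3e-05) with mouse 1 and -2.60 without it, a level near that of single UMIs. Regulatory cells against progenitors gave 4.20 ± 0.82 (adjusted p = 0.0013). Col23a1, a transmembrane chain, had 3.68, 3.68 and 3.37 CPM in progenitors, 14.0, 3.61 and 3.98 in preadipocytes and 6.32, 6.22 and 9.82 in regulatory cells, and its difference between progenitors and preadipocytes (-0.82 ± 0.31, adjusted p = 0.04) was -0.085 without mouse 1, with an adjusted p of 0.76 in edgeR. Col8a1, a short-chain network collagen of vessel walls, was 3.93-fold higher in progenitors than in preadipocytes (log2 1.97 ± 0.36, adjusted p = 5.5e-04), at 2.01 to 4.88 and 0.272 to 1.26 CPM, and the log2 value was 2.85 without mouse 2. Col7a1 and Col20a1 had at most 4.91 CPM and were higher in preadipocytes than in progenitors, by log2 -1.17 and -1.03 for progenitors against preadipocytes (adjusted p = 0.0087 and 0.016). For Col7a1 the call was lost without mouse 2 (-1.10, adjusted p = 0.053 in edgeR). For Col20a1, whose exons overlap those of BX649560.1 on the same strand, the call was lost without mouse 1 (-0.81) or mouse 2 (-0.99). Regulatory cells against progenitors gave 1.49 for Col7a1 (adjusted p = 0.063 in edgeR) and 1.62 for Col20a1 (adjusted p = 0.022). That call of Col20a1 was lost without mouse 1 (1.07) or mouse 2 (1.64). Neither chain differed past the threshold between regulatory cells and preadipocytes.

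The chains were also followed as the share of cells with a UMI. Every cell was thinned to 3000 UMIs, which left 18405 progenitors, 5400 preadipocytes and 846 regulatory cells. Col1a1, Col1a2 and Col3a1 were found in 99.7 to 100% of cells of each class on average over mice, so that their shares could not show the differences between sums. Col6a3 was found in 84.4% of progenitors, 98.4% of preadipocytes and 83.7% of regulatory cells, nearly the same in the first and the last. Col4a1 was found in 40.9% of progenitors, 98.6% of preadipocytes and 80.5% of regulatory cells, and Col15a1 in 6.24%, 87.8% and 63.4%. Col14a1 was found in 81.4%, 16.2% and 36.9%, and Col12a1 in 13.9%, 4.26% and 0.631%. Without thinning, the Col4a1 shares were 65.2%, 99.4% and 84.4% and the Col14a1 shares 94.7%, 29.9% and 49.1%. Of 9 leukocyte-gate cells with 3000 UMIs, 6 held a UMI of Col1a1, 2 of Col15a1, 1 of Col4a1 and 1 of Col14a1. These cells should lack collagen transcripts. Before thinning, the 3, 4 and 3 cells of the whole leukocyte gate had medians of 3799, 5300 and 4564 UMIs. Both cells with Col15a1 came from mouse 1, so these cells are too few to set a background level for the 6.24% of progenitors.

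**Figure D4:**
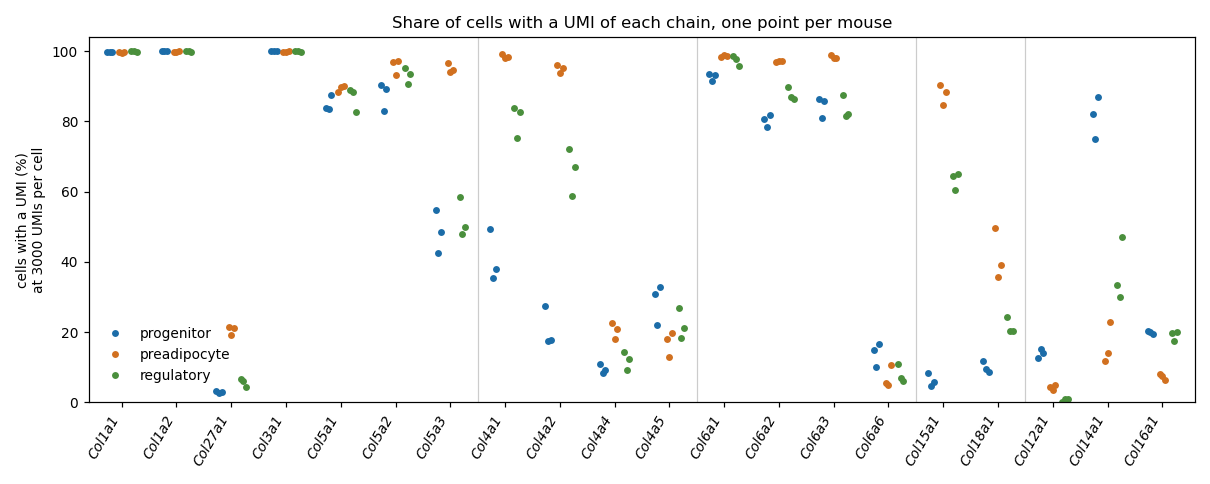
Percent of cells with at least 1 UMI of each chain after thinning to 3000 UMIs per cell; each point is 1 mouse. Col4a1, Col4a2, Col5a3 and Col15a1 reach more than 84% of preadipocytes in each mouse, while Col14a1 reaches 75 to 87% of progenitors.

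Collagen chains are hydroxylated and folded inside the cell and are trimmed and cross-linked outside it, and a list of 35 genes for these steps was followed in the same fit. Of 33 that were tested, 26 passed between progenitors and preadipocytes (7 higher in progenitors, 19 higher in preadipocytes), 23 between regulatory cells and progenitors (15 higher in regulatory cells, 8 higher in progenitors) and 17 between regulatory cells and preadipocytes (8 higher in regulatory cells, 9 higher in preadipocytes). Of all tested genes, 56.4% (29.2% and 27.2% by direction), 42.9% (18.9% and 24.0%) and 25.7% (12.3% and 13.3%) passed. Without the mouse as a block, 14, 9 and 7 of the list passed. The shares over all genes are from the fit with the block and were not taken for that alternative. The medians of the log2 fold change were -0.26, 0.24 and -0.02. The lysyl hydroxylases Plod1 and Plod2, which prepare lysines for cross-linking, were lower in progenitors than in preadipocytes. Plod1 had 35.2, 30.0 and 28.9 CPM in progenitors, 191, 151 and 149.9 in preadipocytes and 87.8, 69.0 and 51.1 in regulatory cells (progenitors against preadipocytes -2.33 ± 0.08, adjusted p = 2.0e-10). Plod2 had 43.6, 24.3 and 33.5 CPM in progenitors, 222, 73.5 and 112 in preadipocytes and 68.1, 37.3 and 35.1 in regulatory cells (-1.85 ± 0.13, adjusted p = 8.9e-08), with mouse 1 the highest in each class. Serpinh1, the collagen chaperone HSP47, was lower in progenitors than in the other classes, with 1281, 1476 and 1184 CPM in progenitors, 2295, 2441 and 2447 in preadipocytes and 2410.2, 2365 and 2117 in regulatory cells (-0.82 ± 0.08 for progenitors against preadipocytes, adjusted p = 2.2e-06, and 0.81 ± 0.08 for regulatory cells against progenitors, adjusted p = 5.0e-06). Crtap, part of the prolyl 3-hydroxylation complex, was 0.69 ± 0.07 higher in regulatory cells than in progenitors on the log2 scale (adjusted p = 4.9e-06), and P4ha1, a subunit of prolyl 4-hydroxylase, was 0.44 ± 0.06 higher in regulatory cells than in preadipocytes (adjusted p = 2.4e-04). Ppib, a prolyl isomerase of the same complex as Crtap, was 0.35 ± 0.06 higher in regulatory cells than in preadipocytes (adjusted p = 0.0018).

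The enzymes outside the cell split in direction. Pcolce2, which enhances cleavage of the carboxyl propeptide, had 969.7, 1186 and 1029 CPM in progenitors, 201, 239 and 242 in preadipocytes and 599, 752 and 692 in regulatory cells, with no overlap between classes (2.28 ± 0.07 for progenitors against preadipocytes, adjusted p = 7.6e-11). Bmp1, the protease it assists, had 411, 487 and 455 CPM in progenitors, 174, 192 and 176 in preadipocytes and 205, 191 and 151 in regulatory cells (1.37 ± 0.09, adjusted p = 6.5e-08), and Adamts2, which removes the amino propeptide, was higher in progenitors by 0.51 ± 0.07 (adjusted p = 3.5e-05). Of the cross-linking lysyl oxidases, Lox had 116, 107 and 125 CPM in progenitors, 254, 295 and 323 in preadipocytes and 87.8, 85.2 and 87.8 in regulatory cells, with preadipocytes highest (-1.27 ± 0.08, adjusted p = 2.7e-08). Loxl1, which acts mainly on elastic fibres, had 557, 652 and 584 CPM in progenitors, 312, 310.4 and 281 in preadipocytes and 159, 192 and 159 in regulatory cells, with progenitors highest (1.04 ± 0.07, adjusted p = 5.0e-08). Both were lowest in regulatory cells, the class with the highest share of collagen UMIs. Regulatory cells against preadipocytes gave -1.69 ± 0.09 for Lox (adjusted p = 9.6e-08) and -0.77 ± 0.07 for Loxl1 (adjusted p = 9.6e-06). Loxl2 was lower in regulatory cells than in progenitors (-0.63 ± 0.09, adjusted p = 8.3e-05). Sparc, a collagen-binding protein of the matrix, was higher in regulatory cells than in progenitors (0.88 ± 0.11, adjusted p = 4.1e-05) and preadipocytes (0.61 ± 0.11, adjusted p = 0.0013), with 18086, 18325 and 17165 CPM.

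Of 10 genes for collagen receptors, 8 were tested, and Gp6 and Lair1, receptors of platelets and leukocytes, were not. Between progenitors and preadipocytes 5 passed, 3 of them higher in progenitors. Between regulatory cells and progenitors 4 passed, 1 higher in regulatory cells, and between regulatory cells and preadipocytes 4 passed, 1 higher in regulatory cells. The shares over all tested genes were 56.4%, 42.9% and 25.7%. Ddr2, a receptor kinase for fibrillar collagen, had 662, 432 and 741 CPM in progenitors, 269, 189.8 and 298 in preadipocytes and 234, 198 and 314 in regulatory cells (1.32 ± 0.07 for progenitors against preadipocytes, adjusted p = 1.1e-08). Itga11, the integrin subunit for fibrillar collagen in fibroblasts, had 65.8, 54.2 and 80.7 CPM in progenitors, 22.7, 21.8 and 35.1 in preadipocytes and 14.7, 8.65 and 10.8 in regulatory cells (1.40 ± 0.08, adjusted p = 3.2e-08). Both were highest in progenitors, without overlap. Itga1, the integrin subunit that prefers type IV collagen, went the other way at low levels, with 7.31, 6.65 and 8.23 CPM in progenitors and 17.1, 17.9 and 18.8 in preadipocytes (-1.23 ± 0.12, adjusted p = 2.0e-06). Itga2, a platelet and epithelial integrin subunit for collagen, had 20.5, 13.1 and 20.8 CPM in progenitors, 1.47, 1.26 and 1.77 in preadipocytes and 9.13, 4.33 and 8.78 in regulatory cells (3.65 ± 0.15 for progenitors against preadipocytes, adjusted p = 8.6e-10). Mrc2, which takes up collagen for degradation, was highest in preadipocytes, at 161, 188 and 159.8 CPM against 96.9, 108 and 90.9 in progenitors (-0.73 ± 0.07, adjusted p = 1.9e-06).

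**Figure D5:**
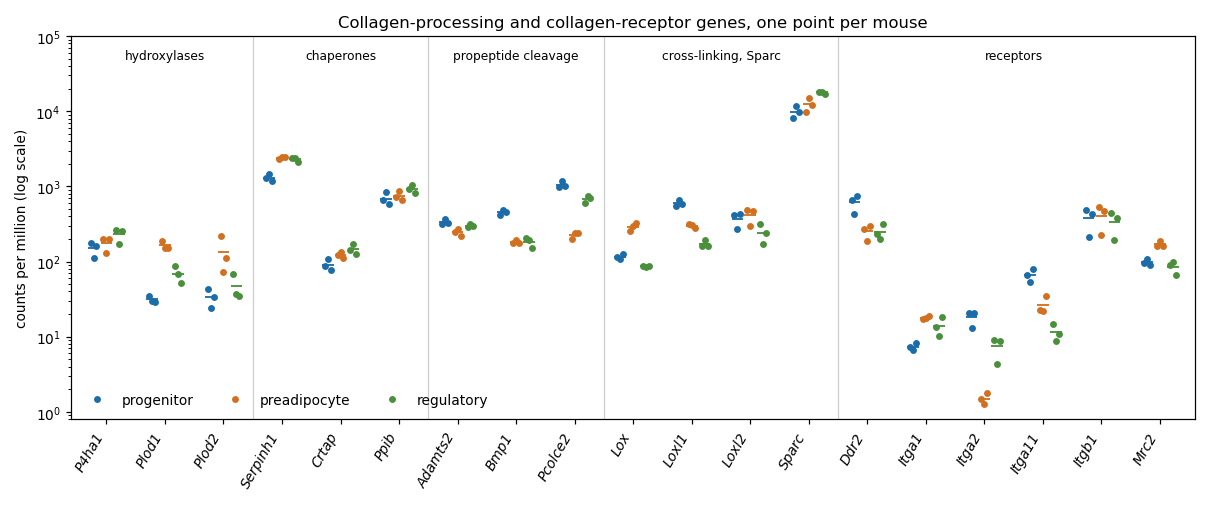
CPM, on a log axis, of collagen-processing genes and 6 collagen-receptor genes in each class, with 1 point per mouse and a bar at the mean. The collagen-processing genes were chosen by size of change among called genes with at least 50 CPM in a class and the same sign in every mouse. Plod1 and Lox peak in preadipocytes, Pcolce2, Bmp1, Loxl1, Ddr2 and Itga11 in progenitors, and Sparc in regulatory cells.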

How the data were processed

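One 10x 3′ (v2) library was made from sorted stromal cells of each of 3 mice. The deposited values are counts of UMIs per gene and cell that the authors made with Cell Ranger on the mm10 genome. Its version is given as 4.0.0 in the file headers and as 2.1.1 in the submitters' processing notes. Of 13698, 6872 and 16220 barcodes, 12984, 6414 and 15179 were kept, with 94816520, 78108414 and 99328725 UMIs. Doublets were not called, except that cells meeting more than 1 gate were left out. The members and gene lists were chosen with earlier results of these data known.

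UMIs were summed per mouse and class. Sums were fitted with edgeR 4.0.16 in R 4.3.3 (filterByExpr, TMM factors, quasi-likelihood test, mouse as block). The 6 gate genes were left out before Benjamini-Hochberg adjustment. The classes come from the same animals, and sums of 1 mouse deviated together (r from 0.153 to 0.676 over 13264 genes). The fit was run on simulated counts with 200 genes changed in progenitors and the same spread for all genes. Against preadipocytes it recovered 199 with 9 false calls. For regulatory cells against progenitors it recovered 188 with 13 false calls. Far more genes differed in the data, so these numbers do not give the error rate of the calls above. Chains at 50 CPM or more in a class were named. Biosynthesis genes were eligible if called, at 50 CPM or more in a class, and of the same sign in every mouse. Of these, the 4 with the greatest change per direction and comparison were named. The alternatives were other normalizations, filters, gates, thinning to 3000 UMIs, DESeq2 1.42.0, no mouse block and leaving out each mouse. Positions are from GENCODE vM21 (GRCm38), promoter windows from RefSeq. Cells of 1 mouse are not replicates. The ± values are SDs over mice or SEs. The SEs were derived from the test, as the absolute log2 fold change divided by the square root of its F statistic. The floor of 3 UMIs covers counting error only. Protein sequences were not used here.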

Additional observations from a re-analysis of the deposited data

How the results depend on the processing

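The numbers of chains called kept within 1.5 times of the counts given above under all 16 alternatives, from 21 to 27 between progenitors and preadipocytes, 17 to 24 between regulatory cells and progenitors and 17 to 21 between regulatory cells and preadipocytes. Without 1 mouse at a time they were 21 to 24, 20 to 22 and 18 to 19. DESeq2 called 23, 24 and 21. Without the replicate block, which ignores that the 3 classes share mice, 14, 9 and 7 biosynthesis genes were called in place of 26, 23 and 17, and no other count moved by over 1.5 times. Without 1 mouse the biosynthesis counts were 23 to 28, 17 to 20 and 12 to 18. Shares over all genes were taken from the main fit only, so a change in these counts cannot be set against all genes.

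The log2 difference in the ratio of fibrillar to type IV and VI chains turned on how it was built. For progenitors against preadipocytes (1.50) it was 1.61 with stricter gates, 1.60 with gates and sums at 3000 UMIs, 1.60 with multiplexins counted as basement membrane, 1.00 without Col1a1, Col1a2 and Col3a1, and 0.094 as a mean of log2 values over the tested chains (0.5 UMI added). For regulatory cells against progenitors (0.35) it turned to -0.32 without those 3 chains and to -0.014 as a mean of log2 values. For regulatory cells against preadipocytes (1.85) it was 2.06 with stricter gates, 0.68 without the 3 chains and 0.080 as a mean of log2 values. Without 1 mouse the ranges were 1.48 to 1.52, 0.29 to 0.45 and 1.78 to 1.94.

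Of 960 values of the 20 named chains under alternatives, 905 kept their direction and side of the threshold, 34 lost the call, 8 gained one and 13 changed sign. Those 13 belong to 4 chains that had not passed the test in that comparison. For regulatory cells against progenitors, Col16a1 was 0.049 with gates and sums at 3000 UMIs and ranged from -0.11 to 0.078 without 1 mouse. For regulatory cells against preadipocytes, Col5a1 was -0.035 on library size, -0.021 on library size without collagen UMIs and -0.016 with no low-count filter, and ranged from -0.12 to 0.11 without 1 mouse. Col5a2 was -0.049, -0.036 and -0.031 in the same settings and -0.022 with cells of more than 1 gate kept, and ranged from -0.064 to 0.10 without 1 mouse. Col6a6 ranged from -0.34 to 0.46 without 1 mouse. The cause of these changes was not tested. With 270 to 404 regulatory cells a mouse, levels under 2.11 CPM in the smallest sum are fewer than 3 UMIs.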
